A study of Mus musculus with 20 samples.

Results

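A set of 10 genes tied to the YAP pathway and to epithelial regeneration were followed across mouse gastric organoids with and without p53. They were taken by symbol, from a list drawn up with earlier results of these data known: Ctgf, Cyr61, Axl, Ankrd1, Amotl2, Ly6a, Anxa1, Anxa3, Tead1 and Yap1. All 10 were found among the 24047 genes of the count table, and all 10 were among the 13476 genes with enough counts to test. YAP, the product of Yap1, is a transcriptional co-activator that the Hippo kinases keep out of the nucleus. In the nucleus it has no DNA-binding domain of its own and works through the TEAD factors, of which Tead1 encodes one. Ctgf, Cyr61, Ankrd1, Amotl2 and Axl are widely used as readouts of YAP and TEAD activity. Ly6a, which encodes the surface protein Sca-1, and the annexin genes Anxa1 and Anxa3 are known as markers of a regenerating, fetal-like state in gut epithelium.

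Gastric organoids are epithelial cultures grown in 3 dimensions, here from mice of the BL/6 strain, and mRNA was sequenced in 20 libraries. The number before the dash in a library title was taken as the organoid line, which gave 8 lines in 5 groups. Wild-type (WT) lines 300 and 1269 were not dysplastic (4 libraries), and WT lines 565 and 752 were dysplastic (6 libraries). The lines labelled p53 KO were line 650, not dysplastic, with the knockout made in vivo (2 libraries), line 1270, not dysplastic, with the knockout made ex vivo (2 libraries), and lines 794 and 801, dysplastic, with the knockout made in vivo (6 libraries). All lines were grown in conditioned medium. The labels give no age, no allele or Cre driver, no treatment and no cause of dysplasia, and do not say whether lines came from separate animals. P-values therefore measure the spread between these lines, and each KO mode without dysplasia is a single line.

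Library totals ran from 5669521 to 16323270 counts. Values are CPM, that is counts relative to the TMM-scaled total, where TMM is edgeR's scaling between samples; a line value comes from the summed counts of its libraries. Trp53, which encodes p53, read between 112 and 161 CPM in the 4 WT lines and between 4.99 and 26.9 CPM in the 4 KO lines. Of 12 gastric epithelial markers, 11 read above 1 CPM in every line; Tff1 did not. The T cell gene Cd3g and the macrophage gene Emr1 were at 0 in all lines, although the 10 immune markers summed to between 15.6 and 65.3 CPM. Of these 10, Cd68 read between 8.81 and 50.8 CPM and Laptm5 between 0.29 and 21.4 CPM, so immune markers were not absent. Lines 300 and 650 were male by their Xist and Ddx3y counts and the other 6 female, so all dysplastic lines were female, and line 650 differed from line 1270 in sex as well as in KO mode. From the data, the last-numbered library of 6 lines (300, 650, 565, 752, 794 and 801) was taken to stand apart from its sister libraries. No library of line 1269 or line 1270 was so taken. Lines 300 and 650 have 2 libraries each, so there 1 library was set against 1, and without the 6 libraries each rests on 1.

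TEAD factors bind DNA at the letters GGAATG or their reverse complement CATTCC, so the stretches around these letters are shown for members with a promoter sequence. RefSeq promoter sequences of build GRCm38.p6 were found for 6 of the 10 genes; Ctgf, Ly6a, Anxa3 and Tead1 had no entry. Within 250 bases before the start of the gene, all 6 held the 6 letters on one strand or the other, against 4153 of 32851 promoters, or 12.6%. Cyr61, Axl, Ankrd1 and Amotl2 were listed as known readouts of YAP and TEAD activity, so this share is a description and no test. The stretches are written 5′ to 3′ on the strand of the gene, with the match in capitals.
Cyr61, chr3:145650058-145650113, minus strand, match 103 bases before the start: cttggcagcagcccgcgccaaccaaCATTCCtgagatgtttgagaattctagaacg
Axl, chr7:25788936-25788983, minus strand, match 233 bases before the start: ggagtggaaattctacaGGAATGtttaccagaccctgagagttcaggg
Ankrd1, chr19:36119937-36120079, minus strand, matches 210 and 123 bases before the start: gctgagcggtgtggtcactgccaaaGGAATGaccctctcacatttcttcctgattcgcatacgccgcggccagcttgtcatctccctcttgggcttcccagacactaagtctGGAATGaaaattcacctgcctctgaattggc
Amotl2, chr9:102717714-102717769, plus strand, match 65 bases before the start: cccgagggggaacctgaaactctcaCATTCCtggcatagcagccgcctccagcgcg
Anxa1, chr19:20390877-20390921, minus strand, match 236 bases before the start: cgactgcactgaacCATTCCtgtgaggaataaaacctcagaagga
Yap1, chr9:8004707-8004762, minus strand, match 141 bases before the start: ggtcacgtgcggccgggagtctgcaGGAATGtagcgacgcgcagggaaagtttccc
A match of letters is a description of the sequence; binding was not measured. Ankrd1 was the only one of the 6 with 2 matches in the shown stretch.

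The 10 genes differed in how much they varied from line to line. The ratio of the highest to the lowest line was 18.7 for Axl, 14.8 for Ly6a, 5.20 for Ctgf, 4.76 for Cyr61 and 4.07 for Ankrd1. It was 2.65 for Amotl2, 2.28 for Anxa1, 1.64 for Anxa3, 1.59 for Tead1 and 1.19 for Yap1, and its median over all genes tested was 1.72. By this ratio Yap1 and Tead1 lay below the median gene and the 5 genes used as readouts above it.

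**Figure D1:**
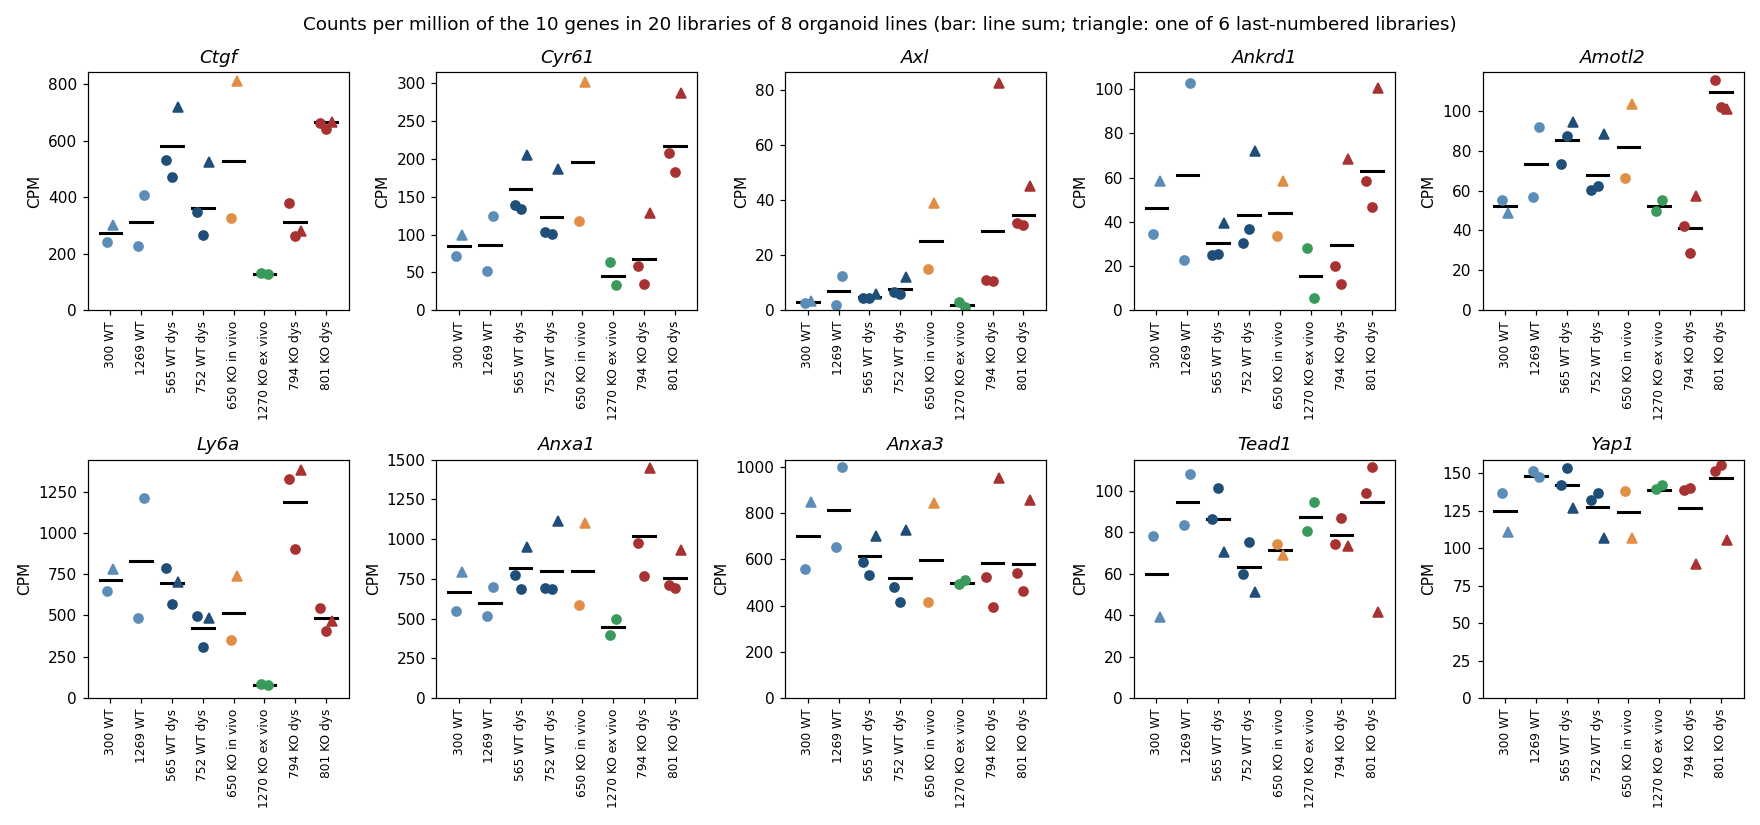
CPM (counts relative to the scaled total, linear axes from 0) of each of the 10 genes in 20 libraries, grouped by organoid line; the bar is the value of the summed line, circles are libraries, triangles are the 6 last-numbered libraries, and colours mark the 5 groups (dys, dysplastic). Both libraries of ex vivo KO line 1270 read 77.6 and 86.8 CPM for Ly6a, below every other library, while Yap1 stayed between 124 and 148 CPM in all 8 line sums.

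Ctgf encodes a secreted matricellular protein and is among the most used YAP readouts. It read 272 and 313 CPM in the WT lines 300 and 1269, 581 and 362 in lines 565 and 752, which are WT and dysplastic, 529 in the in vivo KO 650, 128 in the ex vivo KO 1270, and 313 and 667 in the dysplastic KO lines 794 and 801. Line 1270 was lowest, with both of its libraries below all others, and line 801 highest. The WT dysplastic lines both lay above the WT lines without dysplasia, with a log2 fold change of 0.69 ± 0.66 (SE) that did not pass edgeR's test (adjusted p = 1.00) and was 0.32 without line 565. The KO lines lay on both sides of the WT lines, at 409 ± 238 CPM against 382 ± 138 CPM (SD, n = 4 lines each). Between the neighbours in the order of the lines, only line 1270 and line 300 had library values that did not overlap.

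Cyr61, the close relative of Ctgf in the CCN family, ran in nearly the same order. It read 85.5 and 86.7 CPM in the WT lines 300 and 1269, 161 and 123 in lines 565 and 752, which are WT and dysplastic, 195 in the in vivo KO 650, 45.5 in the ex vivo KO 1270, and 67.8 and 217 in the dysplastic KO lines 794 and 801. Again the 2 WT dysplastic lines were above the 2 WT lines without dysplasia (log2 fold change 0.72 ± 0.73, SE; edgeR adjusted p = 1.00), and again line 1270 was lowest and line 801 highest. The dysplastic KO lines were far apart, line 801 being 3.20-fold above line 794, the second lowest. No 2 neighbours in the order were separated in their libraries. Of the other CCN genes listed, Nov read between 0.20 and 2.14 CPM, and it was highest in line 1270.

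Ankrd1 is a nuclear ankyrin-repeat protein, and Amotl2 an angiomotin that binds YAP and is itself a YAP target. Their ratios of the highest to the lowest line were below those of Ctgf and Cyr61. Ankrd1 read 46.3 and 61.1 CPM in the WT lines 300 and 1269, 30.2 and 43.1 in lines 565 and 752, which are WT and dysplastic, 44.0 in the in vivo KO 650, 15.5 in the ex vivo KO 1270, and 29.4 and 62.9 in the dysplastic KO lines 794 and 801. Unlike Ctgf and Cyr61, Ankrd1 was lower in both WT dysplastic lines than in both WT lines without dysplasia (log2 fold change -0.55 ± 0.54, SE), and lower in both KO lines without dysplasia than in their WT counterparts (-0.86 ± 0.55, SE); in edgeR's test the adjusted p was 1.00 for both. Without line 1270 the second value was -0.27, without line 650 it was -1.79, and the first ran from -0.83 (line 752 left out) to -0.30 (565 left out), with -0.31 when 1269 was left out. Its interaction of genotype and dysplasia was 1.19 ± 0.77 (SE; adjusted p = 1.00 in edgeR's test), and ran from 0.53 (801 left out) to 2.12 (650 left out), with 0.58 when 1270 was left out. Ankrd1 also varied more between libraries of a line than between lines, with SDs of 0.91 and 0.70 on the log2(CPM + 1) scale. Within line 1269, for example, its libraries read 22.8 and 103 CPM. Amotl2 read 52.4 and 73.2 CPM in the WT lines 300 and 1269, 85.5 and 68.0 in lines 565 and 752, which are WT and dysplastic, 81.8 in the in vivo KO 650, 52.1 in the ex vivo KO 1270, and 41.3 and 109 in the dysplastic KO lines 794 and 801. Line 801 was highest for Amotl2 too, and here line 794 rather than line 1270 was lowest. Both dysplastic KO lines were thus at the ends of the order for Amotl2, so the lines of the arms overlapped in the comparisons by genotype and by dysplasia. For Amotl2 the libraries did not overlap between the neighbours 300 and 752, nor between the neighbours 565 and 801. Its SDs between and within lines were 0.44 and 0.32 on the log2(CPM + 1) scale.

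Axl, a receptor tyrosine kinase whose ligand is Gas6, was the 1 gene of the 10 for which 3 KO lines lay above every WT line. It read 2.96 and 6.92 CPM in the WT lines 300 and 1269 and 4.88 and 7.76 in lines 565 and 752, WT with dysplasia, against 25.0 in the in vivo KO 650, 1.85 in the ex vivo KO 1270, and 28.9 and 34.5 in the dysplastic KO lines 794 and 801. These 3 were the lines with the knockout made in vivo, and the line with the knockout made ex vivo was below every WT line. Relative to the WT mean of the same dysplasia class, line 650 stood at 5.07-fold, line 794 at 4.57-fold and line 801 at 5.46-fold. As a mean over both classes the log2 fold change of KO against WT was 1.88 ± 0.73 (SE; unadjusted p = 0.0377 and adjusted p = 1.00 in edgeR's test). It was 2.33 ± 1.04 among dysplastic lines and 1.43 ± 1.03 among the others (SE; adjusted p = 1.00 for both), and 1.24 ± 1.00 for dysplastic against non-dysplastic KO lines (adjusted p = 0.87).

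The dysplastic KO against WT value of Axl ran from 2.01 to 2.69 when each line was left out, and was 2.01 without the 6 last-numbered libraries. The other Axl values moved more. Without line 650 the mean log2 fold change was 0.45, and that of the lines without dysplasia was -1.42. Leaving out line 1270, 1269 or 300 gave 2.35, 2.21 or 0.95 for the latter. Dysplastic against non-dysplastic KO lines gave 4.09 without line 650, 0.32 without line 1270 and 2.37 with a covariate for sex, which also moved the KO against WT value without dysplasia to 0.62. Without the 6 last-numbered libraries the latter was 0.78. In line 794 the last-numbered library read 82.7 CPM and its sisters 11.1 and 10.6 CPM, so the sisters alone stood within the WT library range, whose highest value was 12.4 CPM. In line 801 all 3 libraries lay at or above 31.0 CPM. Fibroblast marker genes moved with Axl in part: the 10 markers summed to between 5.64 and 8.05 CPM in the WT lines, with 6.51 for line 1270, 13.5 for 794, 14.4 for 801 and 36.4 for 650. Their part in the Axl values was not tested. In bulk samples, fewer cells of a type and less RNA per cell cannot be told apart. Of the related receptors, Tyro3 read between 26.5 and 54.6 CPM and Mertk between 0.59 and 1.49 CPM. Gas6 read 353 CPM in line 1270, the highest, and 53.6 in line 1269, the lowest.

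Ly6a was the most line-specific of the regenerative genes. It read 716 and 831 CPM in the WT lines 300 and 1269, 698 and 424 in lines 565 and 752, which are WT and dysplastic, 514 in the in vivo KO 650, 80.4 in the ex vivo KO 1270, and 1189 and 485 in the dysplastic KO lines 794 and 801. Line 1270 stood far below the rest, at 10.4% of the WT mean without dysplasia and 5.28-fold below the next lowest line, while the other 7 lines spanned a range in which only its lower edge, between lines 1270 and 752, separated neighbours in their libraries. Both KO lines without dysplasia were below both WT lines without dysplasia (log2 fold change -1.38 ± 0.82, SE), and both WT dysplastic lines were below those same WT lines (-0.46 ± 0.81, SE). Among KO lines the dysplastic ones were higher by 1.50 ± 0.82 on the log2 scale (SE), and the interaction of genotype and dysplasia was 1.96 ± 1.15 (SE). None of the 4 passed edgeR's test: the adjusted p was 0.76 among KO lines and 1.00 for the other 3. Without line 1270 the KO against WT value was -0.57, the KO dysplasia value 0.68 and the interaction 1.12, and without line 650 they were -3.26, 3.37 and 3.83. Without line 794 the KO dysplasia value was 0.71 and the interaction 1.17; the WT dysplasia value was -0.15 without line 752 and -0.85 without line 565. All dysplastic lines being female, a covariate for sex moved the WT and KO dysplasia values of Ly6a to -0.02 and 2.48.

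Anxa1 and Anxa3 encode calcium-dependent phospholipid-binding proteins, and both were abundant. Anxa1 read 669 and 600.4 CPM in the WT lines 300 and 1269, 815 and 797 in lines 565 and 752, which are WT and dysplastic, 801 in the in vivo KO 650, 447 in the ex vivo KO 1270, and 1021 and 757 in the dysplastic KO lines 794 and 801. Both WT dysplastic lines exceeded both WT lines without dysplasia (log2 fold change 0.34 ± 0.30, SE; edgeR adjusted p = 1.00), and line 1270 was lowest with its libraries below those of its neighbour. Anxa3 read 702 and 816 CPM in the WT lines 300 and 1269, 614 and 519 in lines 565 and 752, which are WT and dysplastic, 597 in the in vivo KO 650, 496 in the ex vivo KO 1270, and 585 and 580 in the dysplastic KO lines 794 and 801. With all libraries, the WT lines without dysplasia were highest for Anxa3. They lay above both KO lines of that class (-0.47 ± 0.18, SE; unadjusted p = 0.0373 and adjusted p = 1.00 in edgeR's test) and above both WT dysplastic lines (-0.42 ± 0.18, SE; adjusted p = 1.00). Leaving out any line kept the sign of both values, the latter being -0.28 without line 1269. Without the 6 last-numbered libraries line 300 read 563 CPM and the WT dysplastic line 565 read 567, so these 2 groups overlapped.

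Yap1 and Tead1 carry the pathway itself. Yap1 read 125 and 148 CPM in the WT lines 300 and 1269, 142 and 128 in lines 565 and 752, which are WT and dysplastic, 124 in the in vivo KO 650, 139 in the ex vivo KO 1270, and 127 and 147 in the dysplastic KO lines 794 and 801. Tead1 read 59.8 and 94.8 CPM in the WT lines 300 and 1269, 86.6 and 63.4 in lines 565 and 752, which are WT and dysplastic, 71.6 in the in vivo KO 650, 87.2 in the ex vivo KO 1270, and 78.7 and 94.5 in the dysplastic KO lines 794 and 801. With all libraries, for neither gene did the lines of the WT and KO arms, or of the dysplastic and non-dysplastic arms, stand apart, and no log2 fold change reached 1. In line 1270, where Ctgf, Cyr61 and Ankrd1 were lowest, Yap1 and Tead1 stood within the range of the other lines.

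Other genes of the Hippo pathway gave no call in edgeR's test. Of 26 listed components, which include the kinases Stk3, Stk4, Lats1 and Lats2, the adaptors Sav1 and Mob1a, the upstream regulator Nf2 and the YAP relative Wwtr1 (TAZ), 24 were tested; Fat4 and Dchs1 were too low. For KO against WT, 10 had positive and 14 negative log2 fold changes with a median of -0.03, and for dysplastic against non-dysplastic lines 14 and 10 with a median of 0.06. Over all genes tested the medians were -0.01 and -0.02. Within KO, the lower arm includes line 1270. There 8 of the 24 were higher and 4 lower in both dysplastic lines, against 16.3% and 15.7% of all genes. In edgeR's test 4 of the 24 had an unadjusted p under 0.05, as had 7.54% of all genes. Tead2, a second TEAD factor, was the 1 component of the 24 that was higher in every dysplastic line than in every other line, as were 1.74% of all genes, at 60.6 ± 19.5 CPM in dysplastic and 39.1 ± 4.67 CPM in the other lines (SD, n = 4 each; log2 fold change 0.59 ± 0.15, SE, adjusted p = 0.63 in edgeR's test). Limma-voom called Tead2 for dysplasia within KO, where it called 1.89% of all genes. DESeq2 did not call it and called 1.46% of all genes there. Line 801 read 88.0 CPM for Tead2 and line 300 read 33.0 CPM.

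Per kilobase of annotated exon, RNA levels can be compared roughly between genes. The lengths come from gene models, not from the transcripts expressed here. The median over lines was 14.4 CPM per kb for Yap1 and 14.3 for Wwtr1, so their RNA was at like levels by this measure. Protein was not measured. Among the TEAD factors it was 9.23 for Tead2, 7.02 for Tead4, 6.09 for Tead1 and 3.23 for Tead3. Among the targets it was 118 for Ctgf, 51.9 for Cyr61, 15.1 for Ankrd1, 11.2 for Amotl2 and 1.46 for Axl. The regenerative genes were higher, at 503 for Ly6a, 267 for Anxa1 and 162 for Anxa3, with the relative Anxa2 at 478 CPM per kb.

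In edgeR's quasi-likelihood test on line sums, 0 of the 10 genes were called at an adjusted p of 0.05 in any of 8 comparisons, and 0% of all genes were. For KO against WT as a mean of both dysplasia classes, 1 of the 10 (Axl) had an unadjusted p under 0.05, as had 543 of all genes. That count was 1 (Anxa3) and 257 without dysplasia, 0 and 588 with dysplasia, and 0 and 797 for dysplastic against non-dysplastic lines as a mean of both genotypes. It was 0 and 156 for dysplasia within WT, 0 and 1016 within KO and 0 and 241 for the interaction. DESeq2 on line sums called 0 of the 10 in these 7 comparisons, where it called 0.549%, 0.0445%, 0.512%, 1.14%, 0.0297%, 1.46% and 0% of all genes in the order given. Limma-voom on libraries, with lines as correlated blocks, also called 0 of the 10 in them, against 0.497%, 0.0395%, 0.797%, 1.09%, 0%, 1.89% and 0% of all genes.

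Counts of genes whose lines did not overlap between the arms were also read against all genes. Among lines without dysplasia, 3 of the 10 (Ankrd1, Ly6a and Anxa3) were lower in both KO lines than in both WT lines, as were 10.6% of all genes. Among dysplastic lines, 1 of the 10 (Axl) was higher in both KO lines, as were 19.0% of all genes. Within WT, 3 of the 10 (Ctgf, Cyr61 and Anxa1) were higher in both dysplastic lines, as were 13.7% of all genes, and 3 of the 10 (Ankrd1, Ly6a and Anxa3) were lower, as were 12.1%. Within KO, 1 of the 10 (Axl) was higher in both dysplastic lines, against 16.3% of all genes. The median log2 fold change of the 10 genes was 0.05 for KO against WT and 0.33 for dysplastic against non-dysplastic lines as means, where 9 of the 10 were positive. Over all genes these medians were -0.01 and -0.02. Dysplasia gave 5 of the 10 positive within WT (median 0.14) and 10 of 10 within KO (median 0.38), where the lower arm includes line 1270. Without the 6 last-numbered libraries, the counts for KO against WT were the same with the same genes, against 12.9% of all genes for the 3 lower without dysplasia and 18.8% for Axl. Within WT, 2 of the 10 were then higher with dysplasia (Cyr61 and Anxa1; 15.2% of all genes) and 1 lower (Ankrd1; 13.8%), so Ctgf, Ly6a and Anxa3 no longer separated those lines. Within KO, 4 of the 10 were then higher (Ctgf, Ly6a, Anxa1 and Yap1; 18.9%), and Axl was not among them. Anxa1 was then higher in all 4 dysplastic lines than in all others, as were 2.69% of all genes.

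The ex vivo and the in vivo knockout without dysplasia were each 1 line, 1270 and 650. Axl was 13.6-fold and Ctgf 4.13-fold higher in the in vivo line, and Ly6a in the ex vivo line was 15.7% of that in the in vivo line. The log2 fold changes of ex vivo minus in vivo were -2.05 ± 0.60 for Ctgf, -2.10 ± 0.75 for Cyr61, -3.76 ± 0.70 for Axl, -1.51 ± 0.57 for Ankrd1 and -2.68 ± 0.69 for Ly6a (SE). Yap1 and Tead1 were the 2 of the 10 with positive values. Without the 6 last-numbered libraries these were Tead1 and Anxa3, and Yap1 was at -0.01. The comparison sets 1 line against 1 line, so its error is the spread within the other groups, and the KO mode, the sex and the line itself cannot be told apart.

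EdgeR called 0 of the 10 genes here (adjusted p 0.67 for Ctgf, 0.69 for Cyr61, 0.52 for Axl, 0.69 for Ankrd1 and 0.64 for Ly6a), and 6 of the 10 (Ctgf, Cyr61, Axl, Ankrd1, Ly6a and Anxa1) had an unadjusted p under 0.05, as had 7.07% of all genes. DESeq2 called 3 of the 10, against 1.42% of all genes: Ctgf (adjusted p = 0.0277), Axl (2.63e-05) and Ly6a (0.00262). Limma-voom called 0 of the 10 and 0.197% of all genes. Without the 6 last-numbered libraries, 1 of which belongs to line 650 and none to line 1270, DESeq2 called 1 of the 10, Ly6a (adjusted p = 0.0311), and 1.44% of all genes. In edgeR, 2 of the 10 (Axl and Ly6a) then had an unadjusted p under 0.05, against 9.98% of all genes, and the same 2 did when sex was a covariate, against 6.02%. The log2 fold changes without those libraries were -1.35 for Ctgf, -1.38 for Cyr61, -3.02 for Axl, -1.12 for Ankrd1 and -2.14 for Ly6a. The smooth muscle markers also moved with this comparison, summing to 119 CPM in line 650 and 8.39 CPM in line 1270, as did the fibroblast markers given above. Their part in it was not tested.

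**Figure D2:**
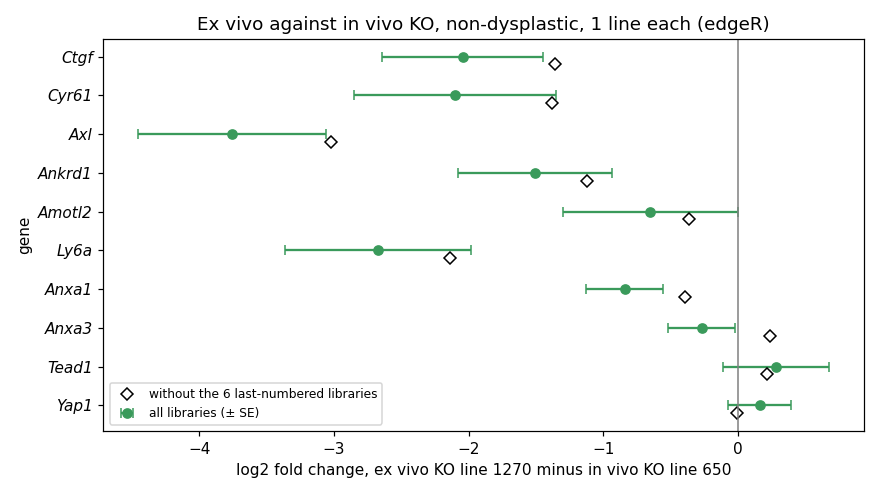
Log2 fold change of ex vivo KO line 1270 minus in vivo KO line 650 (x axis) for the 10 genes (y axis); circles with bars are edgeR values ± SE from all libraries and diamonds are values without the 6 last-numbered libraries. Axl lies at -3.76 with all libraries and -3.02 without the 6, and Tead1 and Yap1 lie near 0.

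Line 1270 was the lowest of the 8 lines for 7 of the 10 genes (Ctgf, Cyr61, Axl, Ankrd1, Ly6a, Anxa1 and Anxa3), while it was lowest for 17.9% of all genes. Without the 6 libraries it was lowest for 6 of the 10, line 650 then being lowest for Anxa3. The share of all genes lowest in line 1270 was not computed without the 6 libraries, so counts in that setting have no share beside them. A wider list of 22 regenerative and fetal-like genes, all tested, showed the same line at the bottom: 18 of the 22 were lowest in line 1270, and 17 of the 22 without the 6 libraries. For ex vivo minus in vivo, 19 of the 22 had negative values with a median of -0.98, against -0.02 over all genes. None of the 22 was called in edgeR's test. Cldn4, a tight junction claudin, read 98.3 CPM in line 1270 and between 302 and 577 CPM in the other lines. Sprr1a, a cornified envelope precursor, read 140 CPM in line 1270 and between 365 and 1116 CPM elsewhere. Il1rn, the interleukin-1 receptor antagonist, read 62.8 CPM in line 1270 and between 192 and 342 CPM elsewhere. Ly6c1, a relative of Ly6a, read 2.88 CPM in line 1270 and between 17.7 and 51.9 CPM elsewhere. These 4 were named after their values were seen. Spp1, Gja1 and Anxa8 were among those not lowest there. Spp1, which encodes osteopontin, read 1819 CPM in line 1270 and between 1497 and 2333 CPM elsewhere. Gastric epithelial markers moved in this line too. Of the 12, 7 had positive and 5 negative values for ex vivo minus in vivo, with a median of 0.09. Epcam, Krt8, Krt18 and Krt19 were lowest in line 1270, at 557, 2656, 1607 and 2886 CPM against 858, 3710, 2401 and 4367 in line 650. Cdh1 was highest in line 1270, at 1945 CPM against 1742 in line 650, and Muc1 read 1795 and 1779 CPM. The surface mucous cell genes Muc5ac, Gkn1 and Gkn2 read 185, 463 and 417 CPM in line 1270 and 1.86, 22.4 and 15.0 in line 650, and the trefoil factor gene Tff2 read 42.1 and 1006 CPM. Their part in the values of the regenerative genes was not tested. Clu, a marker of revival stem cells, was the most abundant of the list, at 7351 CPM in line 1270 and between 8905 and 16358 CPM elsewhere.

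**Figure D3:**
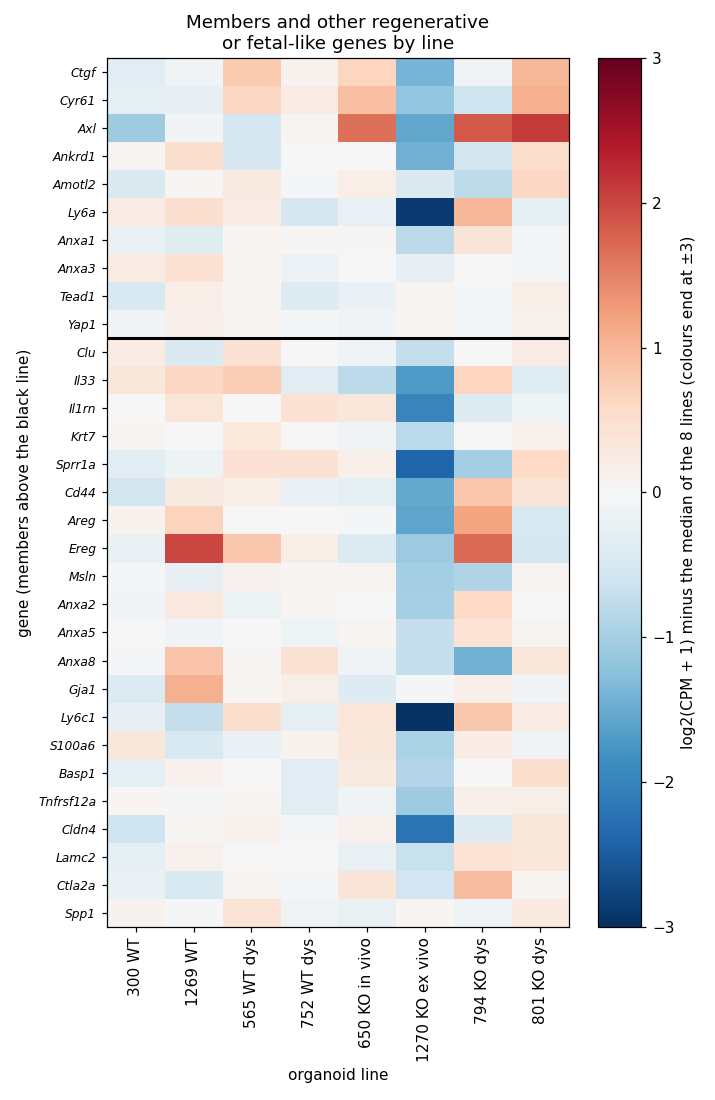
Level of each gene by organoid line, as log2(CPM + 1) minus the median of the 8 lines (colour scale, ending at ±3), for the 10 genes above the black line and other regenerative or fetal-like genes below it. The column of ex vivo KO line 1270 is blue for most genes, with 7 of the 10 and 18 of the genes below the line at their lowest of the 8 lines.

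For KO against WT and for dysplasia, the wider lists gave no call in edgeR's test. Of the 22 regenerative genes, 5 had positive and 17 negative log2 fold changes for KO against WT as a mean (median -0.21), and 19 had positive and 3 negative ones for dysplasia (median 0.30). Within KO, all 22 were higher in the dysplastic mean (median 0.57), in a comparison whose lower arm includes line 1270, whereas within WT 11 were higher and 11 lower. Of 20 other YAP target genes 18 were tested, Foxf2 and Tgfbi being too low; 9 were higher and 9 lower in KO (median 0.01), and 14 higher and 4 lower in dysplastic lines (median 0.21). Nt5e, the ectonucleotidase CD73, read 123 ± 24.8 CPM in dysplastic and 209 ± 7.47 CPM in the other lines (SD, n = 4 each; log2 fold change -0.78 ± 0.14, SE, adjusted p = 0.43 in edgeR's test). DESeq2 and limma-voom both called Nt5e and Fjx1 for dysplasia, where they called 1.14% and 1.09% of all genes. Fjx1 read 3.40 to 17.1 CPM in dysplastic and 1.29 to 3.99 CPM in the other lines. Both tools called Fstl1 for KO against WT, where they called 0.549% and 0.497% of all genes. Fstl1 read 0.10 to 1.01 CPM in the WT lines and 0.58 in KO line 1270. In KO lines 650, 794 and 801 it read 4.86, 19.7 and 14.9 CPM. For ex vivo minus in vivo, 13 of the 18 had negative values (median -0.43); F3, which encodes tissue factor, read 117 CPM in line 1270 and between 465 and 859 CPM in the other lines, and Birc5 and Wwc2 were among those with positive values. F3 was named after its values were seen.

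The 2 dysplastic KO lines differed from each other. Line 801 was the highest of the 8 lines for 5 of the 10 genes (Ctgf, Cyr61, Axl, Ankrd1 and Amotl2), all YAP targets. It was highest for 12.2% of all genes. Without the 6 libraries it was highest for 6 of the 10, with Tead1 and Yap1 in and Ankrd1, then highest in line 1269, out. The share of all genes was not computed for that setting. Line 794 was highest for Ly6a and Anxa1 and lowest for Amotl2. Thbs1, a matricellular YAP target of the wider list, read 1267 CPM in line 801 and 121 CPM in line 794, the highest and lowest of the 8 lines; it was named after its values were seen. Smooth muscle markers ran the same way, summing to 218 CPM in line 801 and 2.80 CPM in line 794, with Acta2 at 104 and 0.95 CPM. Surface mucous cell genes ran the other way: Muc5ac, Gkn1 and Gkn2 read 1.63, 43.8 and 10.5 CPM in line 801 and 461, 3760 and 389.9 in line 794. The part of either marker group in these values was not tested. Line 1269 was highest for Anxa3, Tead1 and Yap1, line 300 lowest for Tead1 and line 650 lowest for Yap1. Without the 6 libraries, 801 was highest and 752 lowest for both Tead1 and Yap1, and 1269 was still highest for Anxa3.

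Within a line, the last-numbered library often read differently from its sisters. In all 6 lines with such a library, Cyr61, Axl, Ankrd1, Anxa1 and Anxa3 were higher in it and Tead1 and Yap1 lower. Ctgf and Ly6a were higher in 5 of the 6 and Amotl2 in 4. The median difference in log2(CPM + 1) was 0.87 for Ankrd1, 0.74 for Anxa3, 0.73 for Cyr61, 0.69 for Axl and 0.61 for Anxa1, and -0.39 for Tead1 and -0.35 for Yap1. Of all genes, 24.1% were higher and 26.5% lower in all 6. The difference ran with gene length: over 4 classes of genes with median exon lengths of 1875, 3505, 5406.5 and 9085 bases, its median was 0.32, 0.04, -0.11 and -0.32. Tead1 and Yap1, with 13570 and 9257 bases, are the longest of the 10 genes. Whether length accounts for the values of the 10 genes was not tested. Line 1269 shows that libraries can differ without such a last library: its second library read 408 CPM for Ctgf, 12.4 for Axl and 1210 for Ly6a, against 229, 1.86 and 487 in its first.

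**Figure D4:**
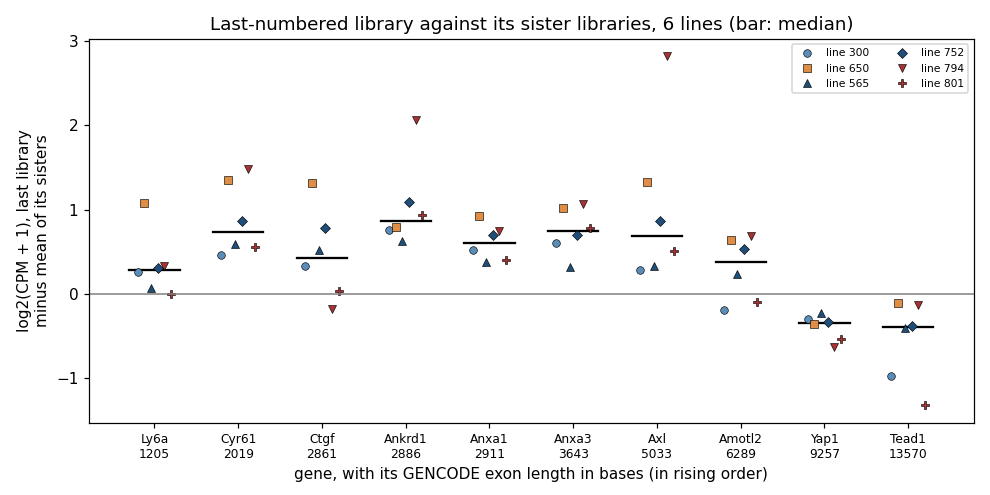
Difference in log2(CPM + 1) between the last-numbered library and the mean of its sister libraries (y axis) in 6 lines (symbols, with the median as a bar) for the 10 genes, ordered by exon length in bases (x axis). Tead1 and Yap1, the 2 longest, lie below 0 in all 6 lines, with medians of -0.39 and -0.35, and Cyr61, Axl, Ankrd1, Anxa1 and Anxa3 lie above 0 in all 6.

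Set against that spread between libraries, the spread between lines was larger for Ly6a and Ctgf and no larger for the annexins. The SD between lines and within lines on the log2(CPM + 1) scale was 1.14 and 0.43 for Ly6a, 0.74 and 0.42 for Ctgf, 1.36 and 0.91 for Axl, and 0.79 and 0.64 for Cyr61. For Anxa3 it was 0.22 and 0.47, for Anxa1 0.36 and 0.37, for Tead1 0.26 and 0.42 and for Yap1 0.12 and 0.24. The medians over all genes were 0.23 and 0.29.

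The genes fell into pairs that ran together over the 8 lines. As a description, Pearson's r of log2(CPM + 1) was 0.95 for Ctgf with Cyr61 (Spearman's rho 0.95), 0.86 for Cyr61 with Amotl2 (rho 0.93), 0.75 for Ctgf with Amotl2 (rho 0.90) and 0.89 for Tead1 with Yap1 (rho 0.86). For Ctgf with Ly6a, r was 0.58 and rho -0.10, so the 2 measures differed in sign, and for Ctgf with Yap1, r was 0.11. Across the 20 libraries, taken as deviations from the mean of their line, r was 0.94 for Cyr61 with Ankrd1, 0.96 for Anxa1 with Anxa3, and -0.93 for Anxa3 with Yap1. Those deviations include the 6 last-numbered libraries, so the values describe libraries rather than lines.

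**Figure D5:**
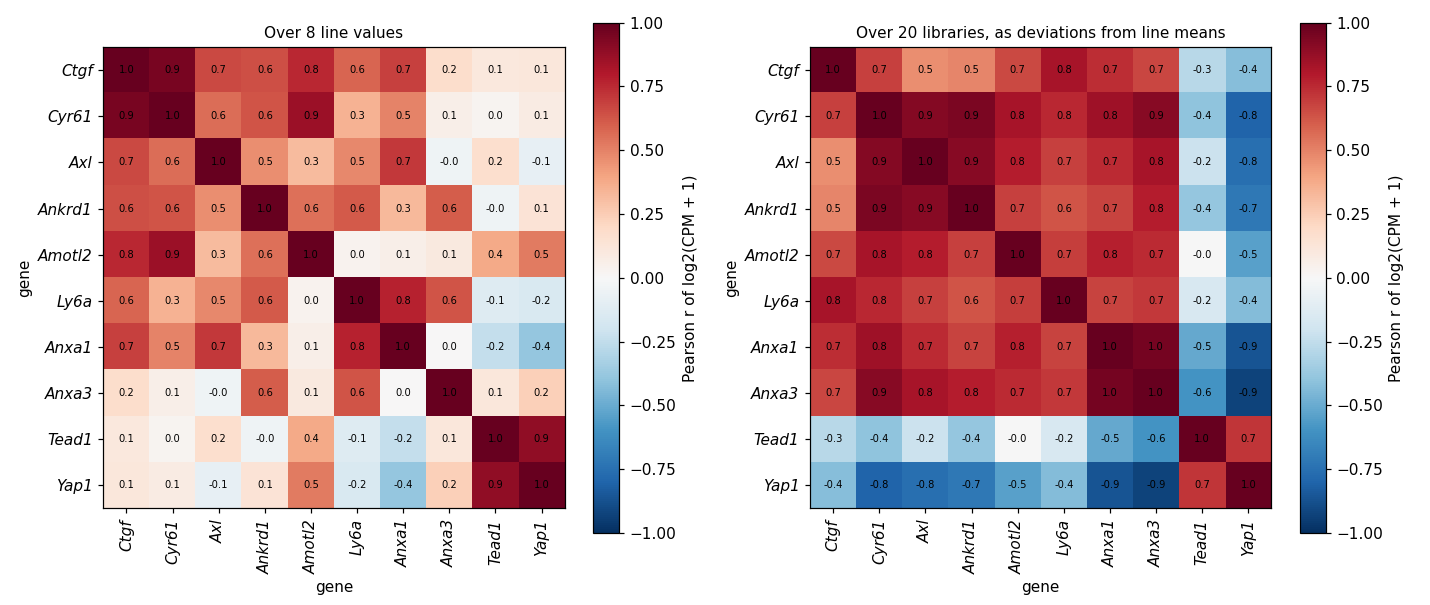
Pearson's r of log2(CPM + 1) between the 10 genes (both axes; colour scale from -1 to 1), over 8 line values on the left and over 20 libraries as deviations from their line means on the right. Ctgf and Cyr61 reach 0.95 over lines, and Yap1 runs against Anxa3 at -0.93 within lines.

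Among 10459 genes searched, those whose log2(CPM + 1) over the 8 lines was most like that of Ctgf were Tuba1a (r 0.98), Tubb2b (0.98) and Mfap3l (0.97). Those most like Ly6a were Tnip3 (r 0.98), Spns2 (0.98) and Arl8a (0.97). Those most like Yap1 were Zfp599 (r 0.97), Zfp346 (0.97) and Ptpn14 (0.97). Ptpn14, a phosphatase that binds YAP, is on the list of Hippo components, and it read between 72.6 and 125 CPM. No test was made of these likenesses.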

How the data were processed

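The authors deposited unnormalized read counts by gene symbol for 20 mRNA libraries. Build mm9, STAR 2.5 and bcl2fastq are named per the submitters' processing notes. Not given in the sources used here: annotation, gene counter and use of strand. Reads of overlapping genes, and of near-identical family members such as Ly6a and its relatives, therefore cannot be assigned with certainty. Counts were summed per line. In R 4.3.3, edgeR 4.0.16 (filterByExpr, which kept 13476 genes; TMM; robust quasi-likelihood test; Benjamini-Hochberg adjustment over all genes; threshold 0.05) was fitted with 1 mean for each of the 4 genotype and dysplasia classes (4 residual degrees of freedom), or for each of the 5 groups where ex vivo was set against in vivo (3). Line and library CPM were scaled separately, so a line can read just outside its libraries. SE is the log2 fold change divided by the square root of F.

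Alternatives were DESeq2 1.42.0 on line sums, limma 3.58.1 (voom on libraries, lines as correlated blocks, also with a replicate block or a term for the 6 last-numbered libraries), other scalings, no filter, sums without those 6 libraries, sex as a covariate and leaving out each line. The procedures were tested on simulated data. A log2 fold change of a member is printed where it is at least 1 in size or the lines of the arms do not overlap, except that in the comparison of 1 line with 1 line only the size counted; at most 3 genes per further list were to be named, where lines do not overlap and the average log2 CPM is above 2, which gave Tead2 and Nt5e. The other genes of these lists given with values were chosen after their values were seen, or as background. Members, lists and rules were chosen with earlier results of these data known. Exon lengths came from GENCODE M21 gene models and promoters from RefSeq, both of a newer build than the counts, so no gene coordinates are given beyond the promoters. Individual values of some listed genes are not reported here. Replicate numbers were checked as correlations of same-numbered group deviations. These were 0.70, 0.81 and 0.84 between the 2 dysplastic groups, for numbers 1, 2 and 3. Between WT and in vivo KO lines without dysplasia the correlation was 0.61, and between the 2 KO modes without dysplasia 0.13. These groups have only numbers 1 and 2, whose deviations mirror each other, so both numbers give the same value by construction. Between in vivo KO without dysplasia and dysplastic KO, number 2 gave -0.80. The last-numbered libraries are number 3 in the dysplastic lines and number 2 in lines 300 and 650. Whether the numbers pair any groups was not tested.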

Additional observations from a re-analysis of the deposited data

Results flagged for a closer look

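Of 70 sets of libraries, each a gene in a group of 4 to 10 libraries, 3 held a library far from the others by Dixon's criterion. For independent values chance gives about 1 in 20. Each set pools libraries of more than 1 line, so that rate does not hold here and the count is a description. Axl read 12.2 CPM in the third library of line 752, against at most 6.72 CPM in the other WT dysplastic libraries, and Ankrd1 read 71.8 CPM in that same library, against at most 39.4 CPM in the others. This is one of the 6 last-numbered libraries. Axl read 12.4 CPM in the second library of line 1269, which is not one of them, against at most 3.35 CPM in the other WT libraries without dysplasia.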

How the results depend on the processing

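None of the 21 log2 fold changes examined was called in edgeR's main fit, so an alternative kept the call by staying uncalled. The sizes moved more: over the alternatives, dysplasia within KO ran from 0.32 to 4.09 for Axl and from 0.68 to 3.37 for Ly6a. Of 368 alternatives to these 21 values, 363 kept direction and call. The exceptions were Axl for KO against WT without dysplasia, which reversed to -1.42 without line 650 (range without a line -1.42 to 2.35), and 4 ex vivo values that DESeq2 called: Ctgf at -2.04, Axl at -3.75 and Ly6a at -2.67 with all libraries, and Ly6a at -2.14 without the 6 last-numbered libraries. Of 155 alternatives to 19 counts, 148 stayed within 1.5 times. Most of these were counts of genes called that were 0 in the main fit and stayed at 0. The 148 therefore says little about how steady the other counts were. The number of the 10 genes called between ex vivo and in vivo KO went from 0 in edgeR to 3 in DESeq2, and to 1 in DESeq2 without the 6 libraries. The number with an unadjusted p under 0.05 there went from 6 to 2 without the 6 libraries, and to 2 with sex as a covariate. Without the 6 libraries, genes of the 10 with every dysplastic line higher went from 0 to 1 over both genotypes and from 1 to 4 within KO, and those with every dysplastic line lower within WT from 3 to 1. These count alternatives, other than DESeq2 with all libraries, were chosen after seeing the data. The comparison could not be run without line 650 or line 1270. Over 21 pairs of groups with the same replicate number the correlation of deviations ran from -0.80 to 0.84, with 11 above 0.1. Where both groups have only numbers 1 and 2, the same value is counted under each number in these 21 correlations. No pairing of groups was drawn from them, and the replicate block in limma-voom changed no call of the 10 genes. With sex as a covariate the WT dysplasia values of Ctgf, Cyr61, Anxa1 and Ankrd1 were 1.05, 1.15, 0.59 and -0.34. With the replicate block limma-voom called 0 of the 10 genes in any comparison, and Axl for KO against WT was 1.36 as a mean and 0.36 without dysplasia, while the WT dysplasia values of Cyr61, Anxa1 and Anxa3 were 0.46, 0.17 and -0.64. Line sums hold at least 22217126 counts, and values below 1 CPM, such as those of Nov and Mertk, rest on few counts.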
